A study of Mus musculus with 93 samples.

Results

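The 10 genes described here, Cd3d, Cd3e, Cd3g, Cd8a, Cd8b1, Gzma, Gzmb, Gzmk, Nkg7 and Prf1, mark T cells and cytotoxic lymphocytes. They were taken by name: each row of the liver count table whose Ensembl identifier maps to 1 of these symbols was used, which gave 10 of the 53465 genes in the table. Of these, 9 passed the filter on low counts, as did 19110 genes in all, and Gzmk did not. Liver RNA was sequenced from 93 male mice of 7 inbred strains. All mice were housed at thermoneutrality (30°C) from 6 wk of age, were fed either a western-style diet (WD, 40% of energy from fat) or a matched control diet (CD, 10% of energy from fat) starting at 7 wk and lasting 17 wk, and were killed, fasted, at 24 wk. On CD and on WD, there were 8 and 8 C57BL/6J mice, 6 and 7 DBA/2J, 5 and 6 A/J, 7 and 6 129S1/SvImJ, 6 and 6 WSB/EiJ, 7 and 8 CAST/EiJ, and 6 and 7 PWK/PhJ. No group carried a transgene or an engineered allele, and every mouse, control mice included, was kept at 30°C. Each strain was studied in 2 cohorts, or 3 for CAST/EiJ. The WSB/EiJ cohorts held no other strain, so for WSB/EiJ strain and cohort cannot be told apart. The other strains shared cohorts only in part, so strain and cohort cannot be fully told apart there either. Neither 129S1/SvImJ nor DBA/2J shared a cohort with C57BL/6J or PWK/PhJ.

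T cells recognise antigen through a receptor that signals by way of the CD3 chains, and CD8 is the coreceptor of T cells that respond to peptides on MHC class I. Cytotoxic T cells and natural killer (NK) cells kill by releasing granules. Perforin, encoded by Prf1, opens the membrane of the target cell, and granzymes are the proteases that enter through it. The liver is rich in lymphocytes, and CD8+ T cells in particular have been studied in fatty liver disease. The livers of this study were perfused with saline before collection. In RNA from whole tissue, fewer cells of a type and less RNA per cell cannot be told apart, which holds for every value below.

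The genes lie in several clusters. Cd3g and Cd3d sit head to head on chromosome 9 and Cd3e lies beside them, Cd8b1 and Cd8a are neighbours on chromosome 6, and Gzma and Gzmk are neighbours on chromosome 13. In the GENCODE vM21 annotation (GRCm38), Cd3g spans positions 44969572 to 44980431 and Cd3d spans 44981786 to 44987339. Cd3e spans 44998740 to 45009627 on the minus strand and shares 135 exonic bases with Gm48719 on the opposite strand. Whether the counting separated the strands is not given in the sources used here, so some Cd3e reads could belong to that gene. The other members share no exonic base with another gene.

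The promoter windows of 6 members are printed as examples, the 3 CD3 genes for the receptor and Gzma, Gzmb and Prf1 for the granules, all 6 with a diet effect in 129S1/SvImJ or PWK/PhJ. Cd8a, Cd8b1 and Nkg7 also had a diet effect and are not printed. Each window runs from 250 bases before to 50 after the start of the gene (RefSeq, GRCm38.p6), written 5′ to 3′ on the strand of the gene. A RefSeq window was found for 9 of the 10 members, with Cd8b1 as the exception. Capitals mark 3 short motifs on either strand: TGTGGT (bound by RUNX factors), GTGTGA (T-box factors such as T-bet and eomesodermin) and CAGGAA (ETS factors).
Cd3g, chr9:44980382-44980681, minus strand: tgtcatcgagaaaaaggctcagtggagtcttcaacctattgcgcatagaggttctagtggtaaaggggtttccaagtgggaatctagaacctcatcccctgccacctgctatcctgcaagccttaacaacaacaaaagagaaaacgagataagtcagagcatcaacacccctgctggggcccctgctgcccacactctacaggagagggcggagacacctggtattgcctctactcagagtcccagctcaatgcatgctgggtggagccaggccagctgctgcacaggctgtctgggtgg
Cd3d, chr9:44981536-44981835, plus strand: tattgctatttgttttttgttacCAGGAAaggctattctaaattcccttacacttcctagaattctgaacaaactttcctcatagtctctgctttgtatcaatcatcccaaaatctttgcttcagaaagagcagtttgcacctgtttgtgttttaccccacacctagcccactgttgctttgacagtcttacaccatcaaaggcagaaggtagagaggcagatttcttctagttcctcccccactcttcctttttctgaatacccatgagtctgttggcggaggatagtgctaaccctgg
Cd3e, chr9:45009562-45009861, minus strand: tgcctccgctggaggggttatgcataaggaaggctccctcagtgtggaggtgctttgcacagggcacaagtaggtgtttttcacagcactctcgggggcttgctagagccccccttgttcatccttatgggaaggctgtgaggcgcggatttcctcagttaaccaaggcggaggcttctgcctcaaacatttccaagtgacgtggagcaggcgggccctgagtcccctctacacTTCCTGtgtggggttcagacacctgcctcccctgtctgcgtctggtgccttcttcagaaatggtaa
Gzma, chr13:113100932-113101231, minus strand: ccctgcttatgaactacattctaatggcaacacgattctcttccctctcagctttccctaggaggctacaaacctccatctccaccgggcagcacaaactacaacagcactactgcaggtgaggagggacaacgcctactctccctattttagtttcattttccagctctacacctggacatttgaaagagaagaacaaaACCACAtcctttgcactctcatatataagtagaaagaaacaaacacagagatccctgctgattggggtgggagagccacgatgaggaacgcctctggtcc
Gzmb, chr14:56262285-56262584, minus strand: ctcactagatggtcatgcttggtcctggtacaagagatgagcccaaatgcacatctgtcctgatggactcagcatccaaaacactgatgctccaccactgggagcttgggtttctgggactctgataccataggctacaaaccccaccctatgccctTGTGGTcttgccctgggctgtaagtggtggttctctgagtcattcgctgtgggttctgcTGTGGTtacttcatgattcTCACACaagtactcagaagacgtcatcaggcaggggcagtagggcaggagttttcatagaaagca
Prf1, chr10:61297586-61297885, plus strand: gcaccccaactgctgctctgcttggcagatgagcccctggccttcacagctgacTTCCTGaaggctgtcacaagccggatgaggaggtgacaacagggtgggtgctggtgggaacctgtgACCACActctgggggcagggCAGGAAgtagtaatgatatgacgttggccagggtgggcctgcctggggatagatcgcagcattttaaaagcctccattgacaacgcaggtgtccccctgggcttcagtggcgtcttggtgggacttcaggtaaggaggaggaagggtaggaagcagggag
The RUNX letters stood in the windows of Gzma, Gzmb, Nkg7 and Prf1, 4 of the 9 members with a window, against 16.8% of 32851 promoter windows of the genome. They were not among the letters of the Cd3d, Cd3e, Cd3g, Cd8a or Gzmk window. The T-box letters stood in Gzmb, Gzmk and Nkg7, 3 of 9, against 14.5% of all windows, and the ETS letters in Cd3d, Cd3e, Nkg7 and Prf1, 4 of 9, against 30.6%. In Gzmb, the RUNX letters nearest to the gene lay at position -34 and the T-box letters at -15, counted from the start of the gene. In Gzma the RUNX letters lay at -50. These matches are a description of the letters and say nothing of binding in these livers.

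All members were weakly represented in liver RNA. Between 40020424 and 49894856 reads per mouse lay on genes, so that 1 CPM (a read count scaled to library size with TMM factors) corresponded to 37.1 to 62.1 reads, and a level of 3 reads lay between 0.0483 and 0.0809 CPM depending on the mouse. RNA integrity numbers were 7 to 9.7. The summed level of 7 hepatocyte markers was 59580 CPM or more in every mouse. Reads of all strains were mapped to the C57BL/6J genome. On CD, unmapped reads made up 2.23% of the total on average in C57BL/6J, 3.50% in PWK/PhJ and 10.8% in CAST/EiJ, and its part in the strain differences of the members was not tested. Per kilobase of exon, the highest mean level on CD in C57BL/6J was that of Nkg7 (0.864 CPM per kb), followed by Gzma (0.678) and Gzmb (0.436), with the CD3 genes at 0.152 (Cd3e) to 0.330 (Cd3g) and Prf1 at 0.205 CPM per kb. Gzmk had the lowest level, 0.0608 CPM per kb.

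**Figure D1:**
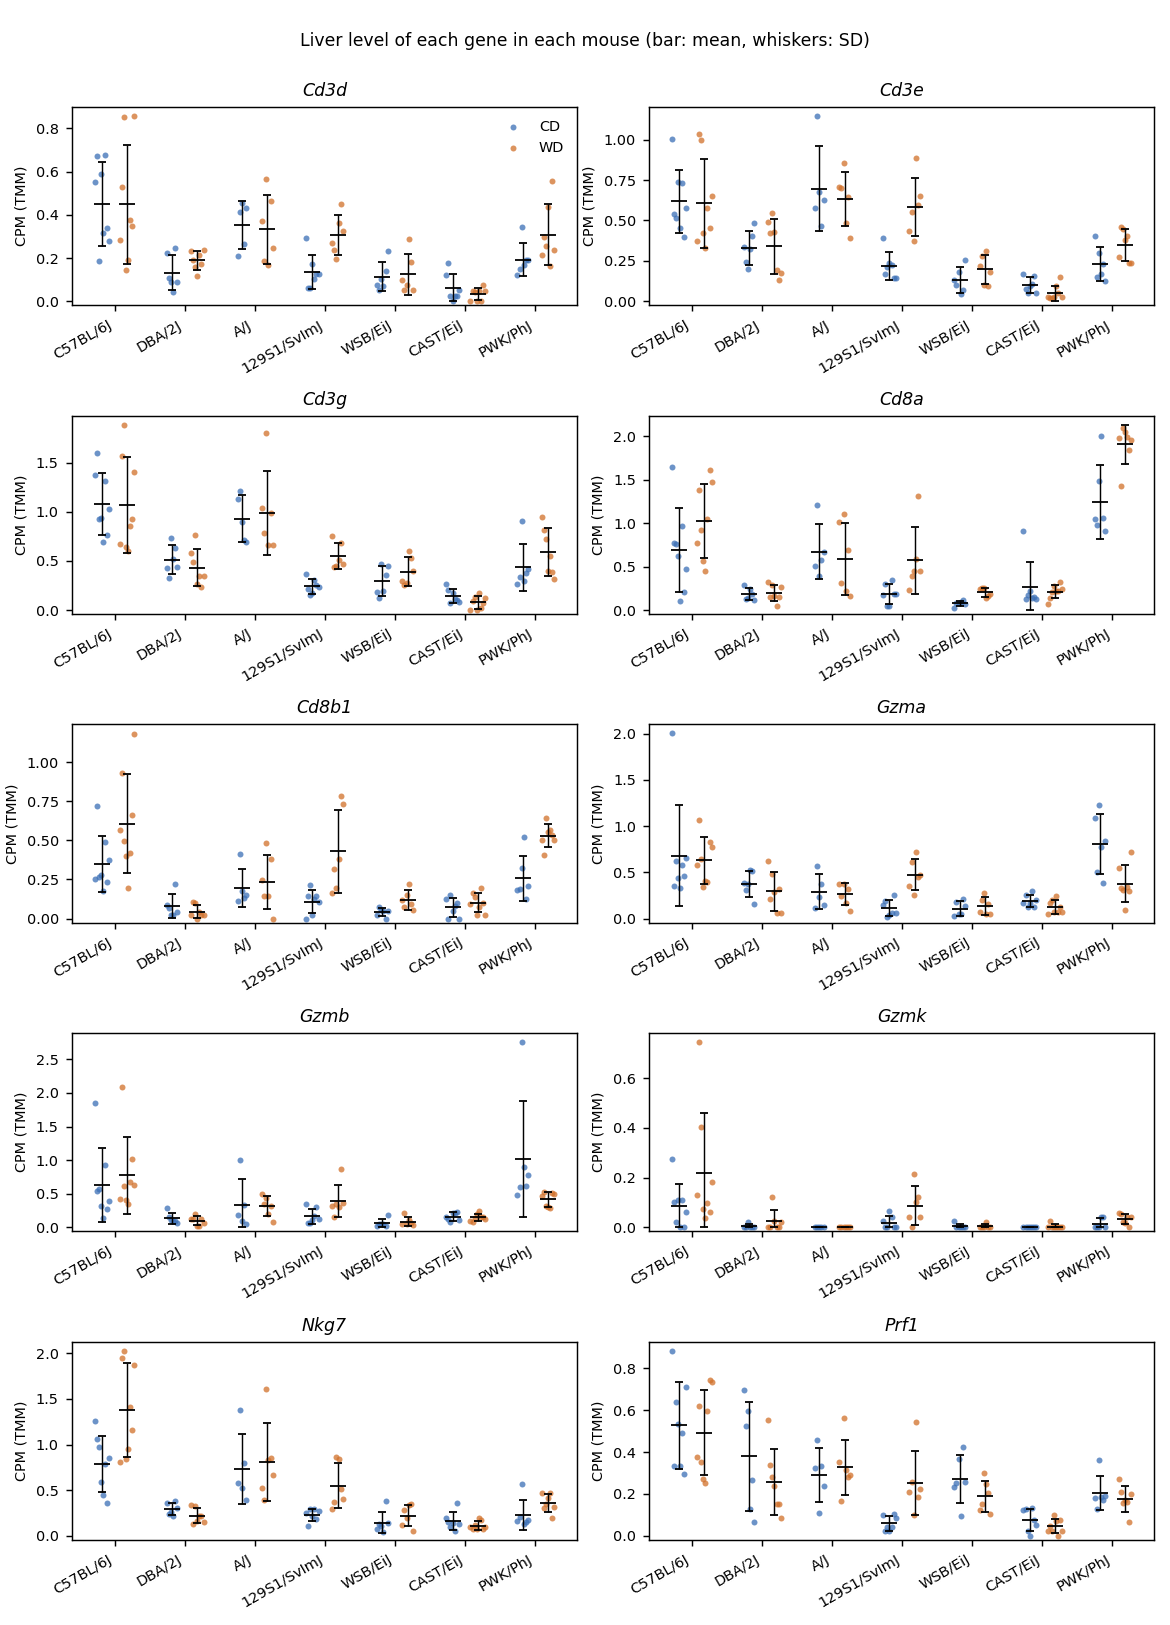
Level of each of the 10 genes in every mouse, in CPM on a linear axis that differs between panels, by strain and diet, with 1 point per mouse, a bar at the group mean and whiskers of 1 SD. C57BL/6J has the highest mean in most panels (5 of 9 tested genes on CD, 7 on WD), and in 129S1/SvImJ the mean on WD lies above that on CD for every gene.

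Levels differed between strains before any effect of WD was considered. On CD, the strain with the highest mean lay 5.41-fold to 16.1-fold above the strain with the lowest for the 9 tested members, and on WD 5.01-fold to 13.8-fold. All 9 differed between the 7 strains by limma's moderated F test on CD, where 93.7% of all genes tested did, and all 9 did on WD, where 93.9% of all genes did, so this count is near the background. C57BL/6J had the highest mean for 5 of the 9 on CD and for 7 on WD. PWK/PhJ was highest on CD for Cd8a, Gzma and Gzmb. WSB/EiJ was lowest for 5 and CAST/EiJ for 3 on CD, and CAST/EiJ was lowest for 6 on WD.

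Cd3e, a signalling chain of the T cell receptor complex, had its highest level on CD in A/J, with 0.578, 1.14, 0.673, 0.467 and 0.626 CPM in the 5 mice. The C57BL/6J mice followed, with a lowest value of 0.401, a median of 0.556 and a highest of 1.00 CPM. These 2 strains overlapped, and the gap between their means was smaller than the SD within either. In CAST/EiJ, at the bottom, Cd3e lay between 0.0508 and 0.172 CPM with a median of 0.0972, so no CAST/EiJ mouse on CD reached the lowest C57BL/6J or A/J mouse. Between these ends stood DBA/2J (0.332 ± 0.105 CPM, SD, n = 6), PWK/PhJ (0.230 ± 0.106, n = 6), 129S1/SvImJ (0.219 ± 0.0856, n = 7) and WSB/EiJ (0.132 ± 0.0780, n = 6). Cd3g, another chain of the complex, also had its lowest mean in CAST/EiJ, its mean being 1.08 ± 0.319 CPM (SD, n = 8) in C57BL/6J and 0.144 ± 0.0729 (SD, n = 7) in CAST/EiJ. Cd3d was at 0.450 ± 0.193 CPM (SD, n = 8) in C57BL/6J and 0.0613 ± 0.0642 (SD, n = 7) in CAST/EiJ, where the median mouse had 1 read. Across all 9 tested members, the gap between neighbours in the order of strains exceeded the larger SD of the pair in 10 of 54 cases on CD and in 12 of 54 on WD, so most neighbouring strains did not differ beyond their spread.

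Against the mean of the other 6 strains on CD, all 9 tested members were higher in C57BL/6J (29.5% of all genes were), by 1.01 (Cd8a) to 1.81 (Cd8b1) on the log2 scale. In A/J, 5 were higher (20.5% of all genes): the 3 CD3 genes, Cd8a and Nkg7, with Cd3e at a log2 difference of 1.59 (SE 0.23, limma-voom adjusted p = 1.04e-08). For the granule proteases in A/J, the log2 difference was -0.00 (SE 0.40, limma-voom adjusted p = 0.997) for Gzma and -0.04 (SE 0.47, adjusted p = 0.956) for Gzmb. In PWK/PhJ, 4 were higher (30.2% of all genes): Cd8a by 2.35 (SE 0.27), Gzmb by 2.37 (SE 0.30), Gzma by 1.81 (SE 0.28) and Cd8b1 by 1.28 (SE 0.41), while Cd3e was at -0.28 (SE 0.28, limma-voom adjusted p = 0.397). Lower levels were called for 4 members in 129S1/SvImJ (20.6% of all genes; Cd3g, Cd8a, Gzma and Prf1), for 6 in WSB/EiJ (23.8%; Cd3e, Cd8a, Cd8b1, Gzma, Gzmb and Nkg7) and for 5 in CAST/EiJ (31.5%; the 3 CD3 genes, Nkg7 and Prf1). In DBA/2J 0 of 9 were called in either direction by limma-voom, where 22.9% of all genes were higher and 19.4% lower, and Prf1 (log2 difference 0.75, adjusted p = 0.0505) was the 1 member with an unadjusted p under 0.05 (0.0214), and edgeR called 2. With the cohort as a term and WSB/EiJ left out, 6 members were called in C57BL/6J, 5 each for the CAST/EiJ and A/J strains, and 3 each for 129S1/SvImJ and PWK/PhJ.

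The level of Prf1, the perforin gene, is given beside the CD3 genes for WSB/EiJ and 129S1/SvImJ, and the difference between genes was not tested. In WSB/EiJ on CD Prf1 was at 0.272 ± 0.115 CPM (SD, n = 6), a log2 difference of 0.52 from the other strains (SE 0.34, limma-voom adjusted p = 0.199), where the log2 difference was -1.23 for Cd3e (adjusted p = 0.00121), -0.58 for Cd3d (adjusted p = 0.21) and -0.66 for Cd3g (adjusted p = 0.0788). In 129S1/SvImJ on CD, Prf1 had its lowest level of all strains, between 0.0210 and 0.105 CPM with a median of 0.0425, which is 1 to 5 reads a mouse. Its log2 difference there was -1.91 (SE 0.43, limma-voom adjusted p = 0.000144), beside -0.33 (adjusted p = 0.32) for Cd3e, -0.37 (adjusted p = 0.393) for Cd3d and -0.88 (adjusted p = 0.0112) for Cd3g, which was lower as Prf1 was.

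The main effect of WD was in 129S1/SvImJ. There 8 of the 9 tested members rose on WD and 0 fell, where 14.5% of all genes rose and 13.6% fell. Their median log2 fold change was 1.40, beside -0.00 for all genes tested. The log2 fold changes ran from 1.16 for Nkg7 to 2.27 for Gzma. The CD3 genes stood at 1.17 to 1.40 and Gzmb at 1.25, and the CD8, granzyme A and perforin genes at 1.67 to 2.27. With SE of 0.305 to 0.55, differences between the genes were not tested. Summed over all 10 members, the level was 1.11 to 2.09 CPM in the 7 mice on CD and 3.06 to 5.96 CPM in the 6 on WD.

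Cd3e in 129S1/SvImJ had a lowest value of 0.147, a median of 0.213 and a highest of 0.394 CPM on CD, and 0.373, 0.573 and 0.887 CPM on WD. All but 1 of the mice on WD lay above every mouse on CD. The mean was 0.219 ± 0.0856 (SD, n = 7) on CD and 0.583 ± 0.181 CPM (SD, n = 6) on WD, and the log2 fold change 1.40 (SE 0.305, limma-voom adjusted p = 0.00024). Cd3g was at 0.149, 0.232 and 0.369 CPM (lowest, median and highest) on CD and at 0.433, 0.486 and 0.749 CPM on WD. Its diets did not overlap, and the log2 fold change was 1.17 (SE 0.36, limma-voom adjusted p = 0.00912). Complete separation with WD above CD in this strain was seen for 9.23% of all genes and for 2 members, Cd3g and Gzma. Cd3d, the delta chain, was at 0.0629, 0.126 and 0.295 CPM on CD and at 0.196, 0.298 and 0.452 CPM on WD, with 3 of the 6 mice on WD above all mice on CD (log2 fold change 1.24, SE 0.41, limma-voom adjusted p = 0.0162).

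Cd8a and Cd8b1 encode the 2 chains of the CD8 coreceptor, and Cd8a is also made by some dendritic cells. In 129S1/SvImJ, Cd8a was at 0.0425, 0.189 and 0.351 CPM (lowest, median and highest) on CD and at 0.229, 0.450 and 1.315 CPM on WD. The highest mouse on WD, replicate 5, stood well above the rest of its group, and 5 of 6 mice on WD exceeded all on CD. The log2 fold change was 1.67 (SE 0.49, limma-voom adjusted p = 0.00629). Cd8b1 went from 0, 0.124 and 0.213 CPM on CD to 0.166, 0.349 and 0.781 CPM on WD, a log2 fold change of 2.09 (SE 0.55, limma-voom adjusted p = 0.00212), with 4 of 6 mice on WD above all on CD.

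Gzma, encoding granzyme A, had the largest log2 fold change of the 9 tested members in 129S1/SvImJ over both cohorts, though in cohort 5 alone that of Cd8b1 was larger (2.69 against 2.55). On CD it was at 0.0213, 0.0632 and 0.252 CPM (lowest, median and highest), or 1 to 12 reads, and on WD at 0.255, 0.460 and 0.726 CPM, or 13 to 36 reads. The diets did not overlap, and the log2 fold change was 2.27 (SE 0.49, limma-voom adjusted p = 0.000229). Gzmb, encoding granzyme B, was at 0.0629, 0.126 and 0.345 CPM on CD and 0.157, 0.333 and 0.863 CPM on WD. It was the tested member that missed the threshold, with a log2 fold change of 1.25 (SE 0.52, limma-voom adjusted p = 0.0597). Nkg7, a membrane protein of cytotoxic granules, was at 0.105, 0.246 and 0.298 CPM on CD and 0.291, 0.461 and 0.864 CPM on WD, with 5 of 6 mice on WD above all on CD (log2 fold change 1.16, SE 0.36, limma-voom adjusted p = 0.0102). Prf1 was at 0.0210, 0.0425 and 0.105 CPM on CD and 0.0982, 0.216 and 0.544 CPM on WD, again with 5 of 6 above all on CD (log2 fold change 1.92, SE 0.51, limma-voom adjusted p = 0.00244).

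**Figure D2:**
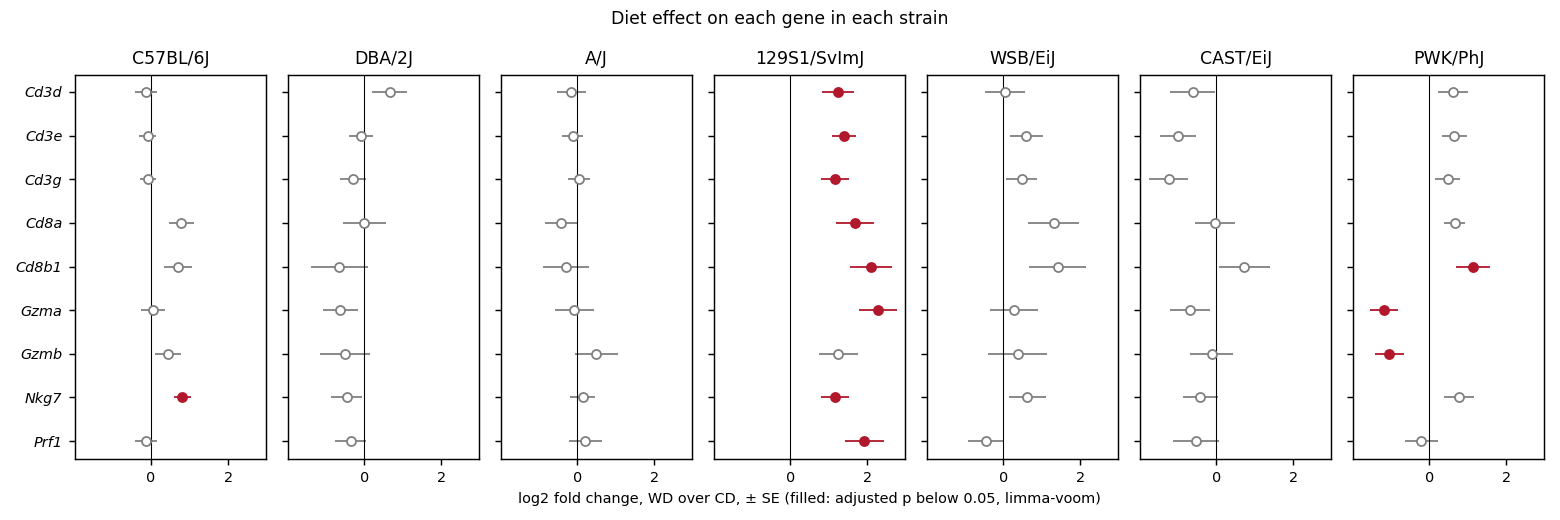
Log2 fold change of WD against CD for the 9 tested members in each strain, with bars of 1 standard error from limma-voom and filled points where the adjusted p was below 0.05. In 129S1/SvImJ all 9 points are positive and 8 are filled, and in PWK/PhJ Cd8b1 is filled above 0 and Gzma and Gzmb are filled below 0.

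The 129S1/SvImJ mice came from 2 cohorts. All 9 tested members had a positive log2 fold change in each, with Cd3e at 0.88 in cohort 3 and 1.86 in cohort 5, and Gzma at 1.975 and 2.55. Fitted alone, cohort 3 (3 mice on each diet) gave 0 called members, the lowest adjusted p being 0.0921 for Gzma, and cohort 5 (4 on CD, 3 on WD) gave 6 called members. Leaving out each of the 13 mice in turn gave 8 or 9 called members. Leaving out at once the 3 mice of this strain that stood apart from their group in some member gave 4, namely Cd3e, Cd3g, Gzma and Prf1, a check chosen after seeing the data.

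In PWK/PhJ on WD, 1 member rose and 2 fell, where 15.1% of all genes rose and 14.5% fell, so the count of 3 in 9 is near the background, and the median log2 fold change of the 9 was 0.61 beside -0.01 for all genes. Gzma was at 0.380, 0.808 and 1.23 CPM (lowest, median and highest) on CD and at 0.0951, 0.335 and 0.719 CPM on WD. The diets overlapped, and the log2 fold change was -1.16 (SE 0.36, limma-voom adjusted p = 0.00955). Gzmb was at 0.482, 0.697 and 2.76 CPM on CD and 0.284, 0.465 and 0.530 CPM on WD, with a log2 fold change of -1.04 (SE 0.38, limma-voom adjusted p = 0.0281). The highest Gzmb value on CD came from replicate 3, with 137 reads where the group's median was 33. The mean share of unmapped reads in PWK/PhJ was 3.50% on CD and 7.88% on WD, and its part in these values was not tested. Without replicate 3 of CD the log2 fold change of Gzmb was -0.69 (limma-voom adjusted p = 0.176) and Nkg7 passed with 1.06 (adjusted p = 0.0461), and without replicate 4 of WD 0 members were called and Gzma was at -0.87 (adjusted p = 0.0573).

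Of the CD8 genes of PWK/PhJ, 1 of 2 passed. Cd8b1 was at 0.127, 0.201 and 0.522 CPM on CD and 0.406, 0.536 and 0.646 CPM on WD, and it rose by 1.13 on the log2 scale (SE 0.44, limma-voom adjusted p = 0.0416). This call was near the threshold: it held in 5 of 13 fits without 1 mouse, and the adjusted p was 0.0699 by edgeR and 0.0588 by DESeq2. Cd8a was at 0.907, 1.05 and 2.00 CPM on CD and 1.43, 1.98 and 2.09 CPM on WD, a log2 fold change of 0.65 (SE 0.28, limma-voom adjusted p = 0.0644). The CD3 genes had log2 fold changes of 0.47 to 0.64, of which 0 passed, with unadjusted p of 0.0519 (Cd3e) or above. The other granule genes did not pass: Nkg7 had a log2 fold change of 0.77 (limma-voom adjusted p = 0.131) and Prf1 of -0.20 (adjusted p = 0.78). Within the cohorts of PWK/PhJ, Gzma was at -1.19 and -1.09, Gzmb at -1.105 and -0.96, and Cd8b1 at 1.14 and 1.11 on the log2 scale, with 0 members called by limma-voom in either cohort (lowest adjusted p 0.104 and 0.149, both for Gzma).

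In C57BL/6J, where all tested members were high on CD, 1 rose on WD and 0 fell, where 14.3% of all genes rose and 11.9% fell. Nkg7 was at 0.359, 0.818 and 1.26 CPM (lowest, median and highest) on CD and 0.808, 1.28 and 2.03 CPM on WD, with a log2 fold change of 0.81 (SE 0.22, limma-voom adjusted p = 0.00371) and overlapping diets. Cd8a was at 0.0983, 0.694 and 1.65 CPM on CD and 0.445, 0.984 and 1.61 CPM on WD, a log2 fold change of 0.79 (SE 0.31, limma-voom adjusted p = 0.0519). Cd8a was at -0.37 in cohort 1 and at 1.84 (limma-voom adjusted p = 0.00102) in cohort 2, and Nkg7 at 0.17 (adjusted p = 0.755) and 1.31 (adjusted p = 0.00305); the difference between cohorts was not tested. The CD3 genes lay at log2 fold changes of -0.13 to -0.08 with SE of 0.22 to 0.29. Prf1 lay at -0.13 (SE 0.29) and Gzma at 0.05 (SE 0.30).

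In the other 4 strains 0 of 9 members were called in either direction by limma-voom, edgeR or DESeq2. The shares of all genes that rose and fell were 9.77% and 9.73% for CAST/EiJ, 4.97% and 3.97% for WSB/EiJ, 4.39% and 4.64% for A/J, and 10.2% and 7.77% for DBA/2J. The median log2 fold change of the members was -0.53 for CAST/EiJ, 0.48 for WSB/EiJ, -0.07 for A/J and -0.35 for DBA/2J. In CAST/EiJ, Cd3e (log2 fold change -0.995, SE 0.46, limma-voom adjusted p = 0.116) and Cd3g (-1.24, SE 0.51, adjusted p = 0.079) were the 2 members with an unadjusted p under 0.05 (0.0319 and 0.0183). Median reads per mouse there were 4 on CD and 1 on WD for Cd3e, so the depth limits what could be detected. In WSB/EiJ, Cd8a lay between 0.0260 and 0.118 CPM on CD and between 0.134 and 0.256 CPM on WD. Every WD mouse was above every CD mouse, as for 2.5% of all genes in this strain, and yet the log2 fold change of 1.31 (SE 0.66) had a limma-voom adjusted p of 0.236, at 1 to 10 reads a mouse.

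Whether the diet effects differed between strains was tested directly. By limma's moderated F test over the 7 strains, the effect differed for all 9 tested members, where it did for 37.5% of all genes, with adjusted p from 6.7e-05 (Gzma) to 0.048 (Cd3d). The number was 6 to 9 when each mouse was left out in turn. Against the mean diet effect of the other 6 strains, 129S1/SvImJ differed for 4 members (6.28% of all genes): Gzma by 2.63 (SE 0.53, limma-voom adjusted p = 0.000898), Prf1 by 2.16 (SE 0.54, adjusted p = 0.00763), Cd3e by 1.40 (SE 0.34, adjusted p = 0.00554) and Cd3g by 1.27 (SE 0.39, adjusted p = 0.0324). PWK/PhJ differed for 2 (16.3% of all genes, a share close to 2 in 9), with Gzma at -1.37 (SE 0.41, limma-voom adjusted p = 0.0149) and Gzmb at -1.37 (SE 0.45, adjusted p = 0.0248). CAST/EiJ differed for 2 (14.5% of all genes, again close to 2 in 9), with Cd3e at -1.39 (SE 0.47, limma-voom adjusted p = 0.0349) and Cd3g at -1.54 (SE 0.53, adjusted p = 0.0379). The count in CAST/EiJ was 1 by edgeR, with no filter or with cohort as a covariate, and 0 with sample quality weights, and it ranged from 0 to 2 without 1 mouse. In C57BL/6J, DBA/2J, A/J and WSB/EiJ 0 members differed by limma-voom or edgeR, where 4.69%, 7.77%, 0.466% and 0.947% of all genes did, and Nkg7 and Cd8b1 in DBA/2J and Cd8a in A/J were the 3 with an unadjusted p under 0.05 (0.0275, 0.0406 and 0.0172).

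The proportions among the members also differed between strains. Reads of Cd8a per read of Cd3e, summed over the mice of a group, stood at 5.39 on CD and 5.40 on WD in PWK/PhJ, and at 0.544 (DBA/2J on CD) to 1.645 (C57BL/6J on WD) in the 10 groups of C57BL/6J, DBA/2J, A/J, 129S1/SvImJ and WSB/EiJ. CAST/EiJ had 2.64 on CD and 4.12 on WD, where 37 of the 74 Cd8a reads on CD came from 1 mouse and Cd3e had 28 and 17 reads in all. Gzma reads per Cd3e read in PWK/PhJ were 3.49 on CD and 1.07 on WD, against 0.514 and 0.821 in 129S1/SvImJ. Gzmb reads per Cd3e read went from 4.45 to 1.18 in PWK/PhJ, and from 0.757 to 0.671 in 129S1/SvImJ. Of the 298 Gzmb reads of PWK/PhJ on CD, 137 came from 1 mouse, replicate 3. Cd8b1 reads per Cd3e read went from 0.579 to 0.973 in C57BL/6J. These ratios carry no test, and a base difference between a strain and the C57BL/6J reference could change the number of reads that map to 1 of the genes; this was not tested.

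**Figure D3:**
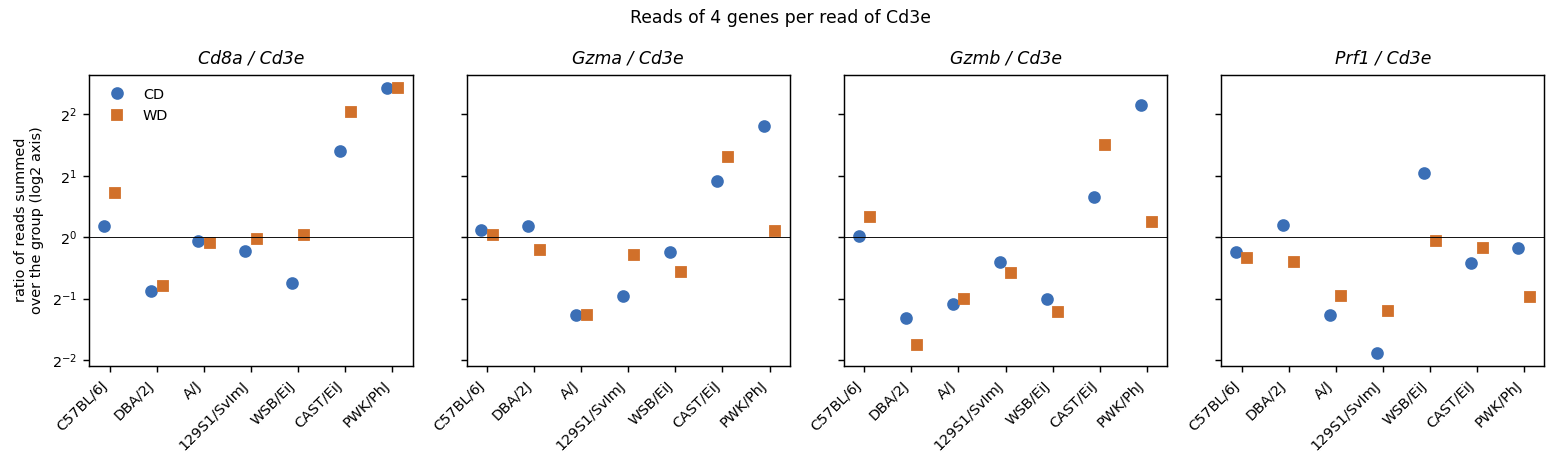
Reads of Cd8a, Gzma, Gzmb and Prf1 divided by reads of Cd3e, summed over the mice of each group, on a log2 axis by strain and diet, with 1 point per group and a line at a ratio of 1. PWK/PhJ has the highest ratio for Cd8a on both diets (5.39 and 5.40), and its Gzma and Gzmb ratios are 3.49 and 4.45 on CD and 1.07 and 1.18 on WD. On CD, 137 of its 298 Gzmb reads came from 1 mouse.

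Gzmk, encoding granzyme K, had too few reads for the model. In A/J it had 0 reads in all 11 mice, which allows a level of up to 0.00591 CPM over the strain (3 reads, counting error only), although A/J was among the strains with the most Cd3e. CAST/EiJ had 1 read in 15 mice, WSB/EiJ 2 in 12, DBA/2J 9 in 13 and PWK/PhJ 16 in 13. C57BL/6J had 132 reads, with reads in 14 of 16 mice, at 0, 0.0801 and 0.275 CPM (lowest, median and highest) on CD and 0.0387, 0.115 and 0.745 CPM on WD (two-sided exact permutation test p = 0.173, adjusted p = 0.346 over 6 strains). In 129S1/SvImJ there were 6 reads on CD and 26 on WD, at 0.0187 ± 0.0261 CPM (SD, n = 7) and 0.0871 ± 0.0774 CPM (SD, n = 6) with overlapping diets (exact permutation test p = 0.0356, adjusted p = 0.213).

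Other genes of T cells also rose in 129S1/SvImJ. Of 21 further T cell receptor and T cell signalling genes, 19 were tested, and 13 rose and 1 fell on WD, with a median log2 fold change of 1.20. Trac, the constant region of the T cell receptor alpha chain, rose by 1.55 (limma-voom adjusted p = 0.000297) and Cd5, a receptor that tunes T cell signalling, by 2.145 (adjusted p = 0.000122). Themis, a signalling protein of developing T cells, rose by 5.32 (adjusted p = 6.57e-07) and stood at 0.124 ± 0.0551 CPM (SD, n = 7) on CD and 5.602 ± 2.77 CPM (SD, n = 6) on WD. The CD3 genes rose by only 1.17 to 1.40 there, and which cells carried the Themis reads was not tested. The 1 that fell was Tcf7, a transcription factor of naive and memory T cells, by 0.57 on the log2 scale. Cd4, the coreceptor of helper T cells, named outside the rule for named genes and after its values were seen, was at 1.35 ± 0.130 CPM on CD and 1.72 ± 0.392 CPM on WD (log2 fold change 0.33, limma-voom adjusted p = 0.44). In PWK/PhJ, 1 of the 19 rose and 2 fell, shares below those over all genes: Cd5 rose by 1.47, and Zap70, a kinase that binds the CD3 chains, and Lef1, a partner of Tcf7, fell by 1.32 and 1.01. In C57BL/6J, where the counts were also 1 and 2 of 19, Themis rose by 4.495, while the CD3 genes lay at -0.13 to -0.08, and Tcf7 and Lef1 fell by 0.99 and 0.72 on the log2 scale. The numbers that rose and fell in WSB/EiJ were 1 and 0, in CAST/EiJ 1 and 0, in A/J 1 and 1, and in DBA/2J 2 and 0. These counts were near or below the shares of all genes given above for each strain.

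NK cell receptors, which cytotoxic T cells share in part, rose for 6 of 10 in 129S1/SvImJ, with a median log2 fold change of 1.195. In PWK/PhJ 0 of 10 passed (median 0.50, lowest limma-voom adjusted p 0.175 for Cd244a), and in C57BL/6J 1 of 10, Cd244a, rose (median of the list 0.20). In WSB/EiJ 1 of 10 rose (median 0.66), and the list summed to 1.76 to 2.68 CPM on CD and 4.59 to 8.13 CPM on WD. A sum can follow the genes with the highest levels, and the share of each gene in it is not given here. In DBA/2J, A/J and CAST/EiJ 0 passed (medians -0.35, 0.29 and -0.25). Over all genes 14.5% rose in 129S1/SvImJ, 15.1% in PWK/PhJ, 14.3% in C57BL/6J and 4.97% in WSB/EiJ. The receptors that rose in 129S1/SvImJ included Styk1 with a log2 fold change of 3.285 (limma-voom adjusted p = 1.29e-07), Ncr1, the NK receptor NKp46, with 2.65 (adjusted p = 4.27e-06) and Il2rb, the interleukin-2 receptor beta chain, with 1.15 (adjusted p = 0.000248). Ncr1 was at 0.0398 ± 0.0224 CPM (SD, n = 7) on CD and 0.300 ± 0.0967 CPM (SD, n = 6) on WD. Of 8 transcription factors of cytotoxic lymphocytes, 6 rose in 129S1/SvImJ, 3 in PWK/PhJ and 3 in C57BL/6J. Runx3, which directs the CD8 lineage, rose in all 3 strains, by 2.04, 1.38 and 1.09 in that order, and Prdm1, encoding Blimp-1, by 1.55, 1.14 and 0.94. In 129S1/SvImJ the 8 factors summed to a mean of 270 CPM on CD and 265 CPM on WD, beside 1.475 and 4.195 CPM for the 10 members. Which cells carried the reads of these factors was not tested. The T-box factors Tbx21, encoding T-bet, and Eomes, picked after their values were seen because their motif was searched above, rose in 129S1/SvImJ by 1.08 (limma-voom adjusted p = 0.0389) and 1.49 (adjusted p = 0.0471).

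Of 15 further genes of granules and killing, 13 were tested, and 6 rose in 129S1/SvImJ (median log2 fold change 0.34), 5 rose and 1 fell in PWK/PhJ (0.54) and 3 rose in C57BL/6J (0.30). Over all genes 14.5%, 15.1% and 14.3% rose in these strains in that order. In PWK/PhJ, Rab27a, which docks granules at the membrane, rose by 1.18 and the granzyme B inhibitor Serpinb9 by 0.94 on the log2 scale. There Ctsc, the protease that activates the granzymes, fell by 0.82 (limma-voom adjusted p = 0.000106), from 130 to 72.9 CPM. Many of these genes are also made by macrophages and other cells. Of 13 tested receptors of activation, residence and inhibition, 9 rose in 129S1/SvImJ (median 1.17), led by Ctla4 with 3.28 and Tnfrsf9 with 2.86, and 4 rose each in PWK/PhJ and C57BL/6J. Chemokines that attract lymphocytes rose for 6 of 8 in 129S1/SvImJ (median 2.01), for 6 of 8 in C57BL/6J (median 1.075) and for 3 of 8 in PWK/PhJ (median 0.35). In WSB/EiJ 2 of 8 rose (median 1.10), and in DBA/2J, A/J and CAST/EiJ 0 did. Cxcl9, a ligand of the chemokine receptor CXCR3 of activated T cells, stood in 129S1/SvImJ at 7.45 ± 1.305 CPM (SD, n = 7) on CD and at 31.7 ± 6.67 CPM (SD, n = 6) on WD.

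Genes of other leukocytes moved in the same livers. In 129S1/SvImJ all 7 pan-leukocyte genes rose (median log2 fold change 1.30), as did 9 of 9 monocyte and macrophage markers (1.70), 4 of 7 dendritic cell markers (1.61), 4 of 7 neutrophil markers (1.56), 3 of 6 Kupffer cell markers (0.55) and 2 of 8 B cell and plasma cell markers (0.64), and 6 of 7 hepatocyte markers fell (-0.46). The pan-leukocyte genes summed to 32.8 to 56.7 CPM on CD and 93.7 to 142 CPM on WD, and the neutrophil marker Ly6g was at 0 in every mouse on CD. In PWK/PhJ the pan-leukocyte genes rose for 7 of 7 (1.08) and the monocyte and macrophage markers for 9 of 9 (1.82), beside 4 of 7 neutrophil, 1 of 7 dendritic, 1 of 6 Kupffer and 1 of 8 B cell markers, while 1 B cell marker, Mzb1, fell (median of that list -0.04) and 4 of 7 hepatocyte markers fell (-0.54). In C57BL/6J the same lists gave 7 of 7 (0.84) and 8 of 9 (0.94), beside 1 of 7, 5 of 7, 1 of 6 and 0 of 8 (lowest limma-voom adjusted p 0.0571 for the B cell list), and 5 of 7 hepatocyte markers fell (-0.44). Over all genes 14.5% rose in 129S1/SvImJ, 15.1% in PWK/PhJ and 14.3% in C57BL/6J, so a single gene in a list of 6 to 8 is near the background. The shares that fell were 13.6%, 14.5% and 11.9% in that order. Dendritic cell markers also rose for 3 of 7 in WSB/EiJ (1.10) and for 3 of 7 in A/J (0.88), while 1 fell in DBA/2J. Monocyte and macrophage markers rose for 4 of 9 in WSB/EiJ (0.85), 1 of 9 each in A/J and CAST/EiJ, and 0 of 9 in DBA/2J. Hepatocyte markers fell in these strains as well, for 4 of 7 in A/J (-0.39), 3 of 7 in DBA/2J (-0.42), 3 of 7 in WSB/EiJ (-0.26) and 2 of 7 in CAST/EiJ (-0.24). The shares of all genes in these 4 strains are given above. The pan-leukocyte and macrophage lists thus rose in full or nearly so in PWK/PhJ and C57BL/6J. Of the 3 CD3 genes 0 passed in either strain. Their log2 fold changes were 0.47 to 0.64 in PWK/PhJ and -0.13 to -0.08 in C57BL/6J. The difference between the CD3 genes and these lists was not tested. In PWK/PhJ on CD the CD3 genes had means of 0.193 to 0.433 CPM and medians of 8.5 to 17 reads a mouse. The pan-leukocyte list summed to a mean of 43.6 CPM there, so a rise of the same size was harder to call for the CD3 genes. What part the other leukocytes had in the members' values was not tested.

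**Figure D4:**
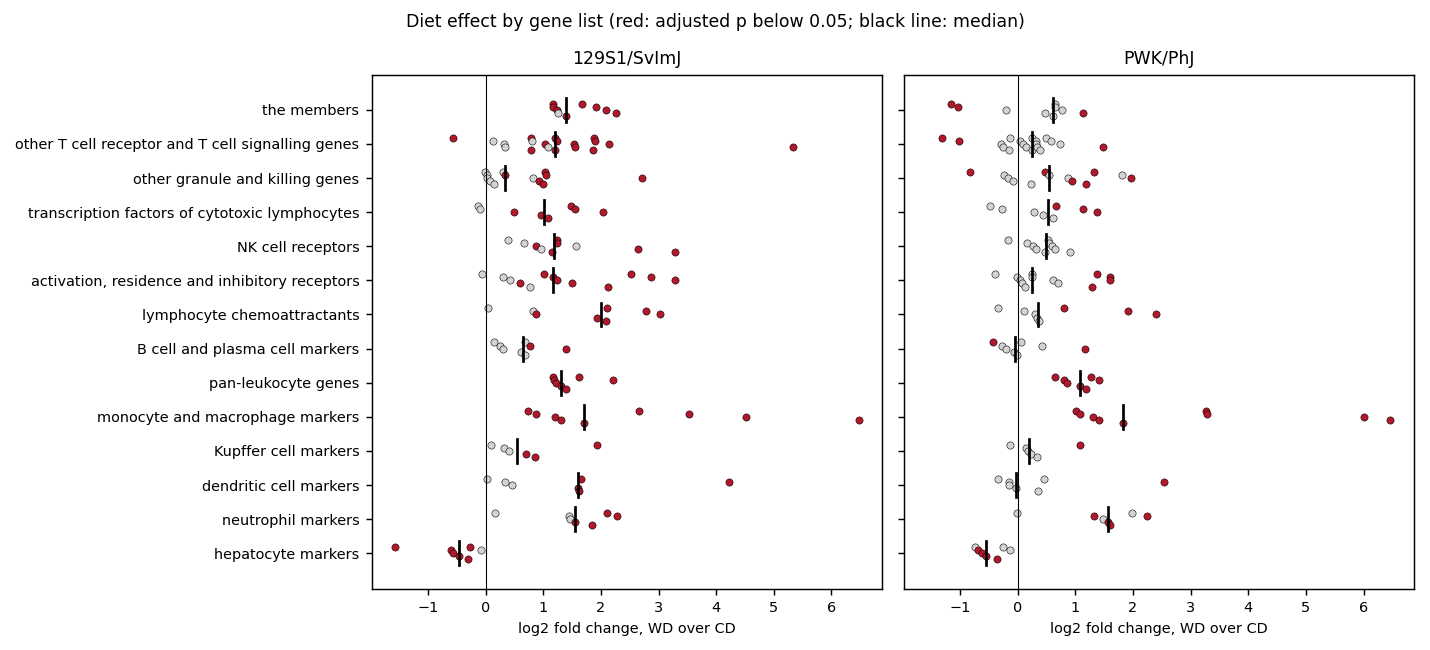
Log2 fold change of WD against CD for every tested gene of the lists, in 129S1/SvImJ and PWK/PhJ, with 1 point per gene, red where the adjusted p was below 0.05, and a black bar at the median of each list. The pan-leukocyte and macrophage lists are above 0 in both strains (medians 1.30 and 1.70, and 1.08 and 1.82), and the NK receptor list has a median of 1.195 in 129S1/SvImJ and 0.50 in PWK/PhJ.

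Within groups, the members varied together to a moderate degree. After the mean of each of the 14 groups was removed from log2 CPM, Pearson's r over the 93 mice ranged from 0.12 to 0.58 over the 36 pairs of tested members, with a median of 0.34. The 3 pairs of CD3 genes had 0.35 to 0.58, the 3 pairs of Gzma, Gzmb and Prf1 0.42 to 0.53, and the 9 pairs between these sets 0.17 to 0.42. The CD8 genes had 0.22 to 0.40 with the CD3 genes (6 pairs) and 0.12 to 0.57 with Gzma, Gzmb and Prf1 (6 pairs). Cd8a with Gzmb, at 0.57, lay above every pair among Gzma, Gzmb and Prf1. The genes of the whole table that varied most like Cd3e were Gimap7 (r = 0.59), Lck (0.58), Gimap3 (0.57), Cd6 (0.56) and Fcho1 (0.55), of which Lck and Cd6 are in the T cell list. Those most like Prf1 were Gzma (0.50), Itgb7 (0.46), 9330175E14Rik (0.45), Mnt (0.45) and H2-K1 (0.45). With a smaller prior count of 0.5 in the log, 3 of the 5 genes for Cd3e and 2 of the 5 for Prf1 stayed the same. The points share libraries and low counts, and counting error at these levels tends to lower r, the size of which was not tested.

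**Figure D5:**
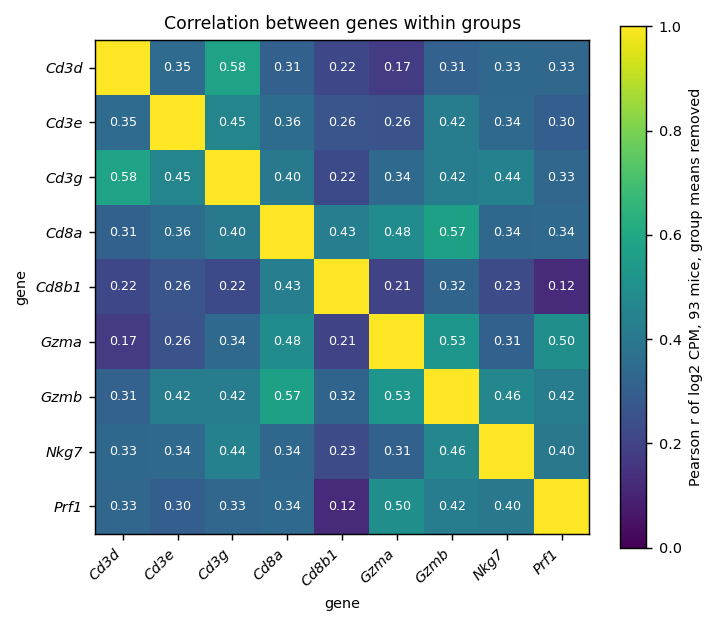
Pearson's r between the 9 tested members over the 93 mice, after the mean of each group of strain and diet was subtracted from log2 CPM. The values run from 0.12 to 0.58, with the pairs among the CD3 genes at 0.35 to 0.58 and those among Gzma, Gzmb and Prf1 at 0.42 to 0.53. Cd8a with Gzmb is at 0.57.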

How the data were processed

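RNA from 93 mouse livers, 1 library per mouse, was sequenced by the authors. The deposited table holds raw read counts per Ensembl gene, made by the authors after mapping all strains with STAR 2.7.1a to the C57BL/6J genome (GRCm38, mm10, per the submitters' processing notes). The annotation release and the strand setting of the counting are not given in the sources used here. Symbols, positions and exon lengths came from GENCODE vM21, in which 53360 of 53465 identifiers were found.

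Low genes were removed with filterByExpr of edgeR (minimum count 10, 14 groups of strain and diet), which left 19110. Counts were scaled by TMM (factors 0.81 to 1.27) and fitted with limma-voom, 1 mean per group, all 93 mice sharing 1 estimate of the spread. The study's methods name limma-voom and TMM, and the joint fit was chosen here. Contrasts were WD against CD within a strain, that effect against the mean of the other 6 strains, and the CD level against the mean of the other 6 strains. P-values were adjusted by Benjamini and Hochberg over all genes tested, with a threshold of 0.05. Fold changes are log2, and SE is that of limma-voom. R 4.3.3, edgeR 4.0.16, limma 3.58.1 and DESeq2 1.42.0 were used, and the fits were tested on simulated data. Gzmk was compared by exact permutation tests. Floors and counts of 0 cover counting error only.

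All 10 members are named. Of each other list, the 3 genes with the lowest adjusted p in a strain, or every gene of a count of 5 or fewer, could be named. The members and lists were chosen with earlier results of these data known. Replicates are separate mice, with numbers in accession order. Mice differ by cohort, and cohort was tried as a covariate and by fits within cohorts. Promoter windows came from RefSeq (GRCm38.p6).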

Additional observations from a re-analysis of the deposited data

Results flagged for a closer look

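Single mice stood apart from their group in 25 of 137 combinations of gene and group, with 5 to 8 mice in a group. The same mice recur across the genes. The rule used, Dixon's test at the 95% level, marks about 1 in 20 combinations by chance. That is 6.85 here if values were normally distributed, which levels of a few reads are not. In 4 of the 25, all for Gzmk, the group had a single read among zeros, so that the mark follows from the construction. In PWK/PhJ on CD, replicate 3 was the highest in 5 genes, with 0.342 CPM for Cd3d, 0.906 for Cd3g, 2.76 for Gzmb, 0.564 for Nkg7 and 0.362 for Prf1. On WD, replicate 2 of PWK/PhJ was the lowest for Cd8a, with 1.43 CPM. In 129S1/SvImJ, replicate 1 on CD had 0.394 CPM for Cd3e, and on WD replicate 5 had 1.315 CPM for Cd8a and 0.863 CPM for Gzmb and replicate 4 had 0.544 CPM for Prf1. In C57BL/6J, replicate 1 on CD had 2.00 CPM for Gzma, 1.85 for Gzmb and 0.275 for Gzmk, and replicate 2 on WD had 2.09 CPM for Gzmb. In A/J, Cd3g reached 1.80 CPM in replicate 3 on WD and Cd8b1 0.412 CPM in replicate 2 on CD. In CAST/EiJ, Cd8a reached 0.907 CPM in replicate 1 on CD. Cd8b1 was at 0.224 CPM in DBA/2J replicate 5 on CD. In WSB/EiJ on CD, Gzmb was at 0.188 CPM in replicate 6 and Nkg7 at 0.378 CPM in replicate 5. For Gzmk in groups nearly all at 0, the highest mice were DBA/2J replicate 3 on CD with 0.0221 CPM, replicate 3 on WD with 0.121 CPM, WSB/EiJ replicate 1 on CD with 0.026 CPM, replicate 4 on WD with 0.0224 CPM and CAST/EiJ replicate 2 on WD with 0.0238 CPM.

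Diet effects that differed between strains were tested directly, by limma-voom. Against the mean of the other 6 strains, the log2 difference in 129S1/SvImJ was 1.40 for Cd3e, 1.27 for Cd3g, 2.63 for Gzma and 2.16 for Prf1. In CAST/EiJ it was -1.39 for Cd3e and -1.54 for Cd3g, and in PWK/PhJ -1.37 for both Gzma and Gzmb. Over the 7 strains at once, limma's F test gave adjusted p of 0.048 for Cd3d, 0.00031 for Cd3e, 0.0022 for Cd3g, 0.031 for Cd8a, 0.028 for Cd8b1, 6.7e-05 for Gzma, 0.024 for Gzmb, 0.018 for Nkg7 and 0.0085 for Prf1.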

How the results depend on the processing

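The settings tried were edgeR, DESeq2, upper-quartile scaling, no filter on low counts, cohort or RNA integrity as covariates, sample quality weights, a fit per strain, fits within cohorts, and each of the 93 mice left out in turn. The direction reversed for 0 of the called diet effects of the members, and in 162 of 179 cases the count of called members stayed within 1.5 times its value. For 129S1/SvImJ, 8 or 9 members were called under each setting that used all its mice. The call of Gzmb changed between these settings, and Prf1 had no value in the fit per strain. The count was 0 within cohort 3, 6 within cohort 5, and 4 without the 3 mice that stood apart, an alternative added after seeing the data. For PWK/PhJ the 3 calls became 1 with no filter, 5 with quality weights, and 0 within cohort 1 and 0 within cohort 2. For C57BL/6J the 1 call became 0 with a fit per strain, 0 within cohort 1, 2 within cohort 2 and 2 without the mice that stood apart. The difference of the diet effect from the other strains was called for 7 members in 129S1/SvImJ with quality weights, and in CAST/EiJ for 1 by edgeR, 1 with no filter, 1 with cohort as a covariate and 0 with quality weights in place of 2. The CD level in DBA/2J gave 2 calls by edgeR and 1 with cohort as a term. By edgeR, 6 in place of 9 members had a diet effect that differed between strains. The causes of these shifts were not tested.

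Without 1 mouse, the number of members with a diet effect was 1 to 2 in C57BL/6J (2 in 7 of 16 fits, where Cd8a passed), 0 to 0 in DBA/2J, A/J and WSB/EiJ, 8 to 9 in 129S1/SvImJ, 0 to 1 in CAST/EiJ and 0 to 4 in PWK/PhJ, where Gzma passed in 12, Gzmb in 9 and Cd8b1 in 5 of 13 fits. In PWK/PhJ it was 0 without replicate 4 of WD, and 1, Gzma, without replicate 3 or replicate 5 of WD. The difference of the diet effect from the other strains was called for 0 to 0 members in C57BL/6J, DBA/2J, A/J and WSB/EiJ, 3 to 4 in 129S1/SvImJ, 0 to 2 in CAST/EiJ and 1 to 2 in PWK/PhJ, and over all strains for 6 to 9. On CD, levels differed for 9 to 10 members in C57BL/6J, 0 to 1 in DBA/2J, 5 to 6 in A/J, 3 to 4 in 129S1/SvImJ, 5 to 6 in WSB/EiJ, 5 to 6 in CAST/EiJ and 4 to 4 in PWK/PhJ, and between strains for 9 to 10 on CD and on WD. A count of 10 arose where Gzmk passed the filter.

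No paired analysis was possible because the replicate numbers were given in accession order and pair no mice. Many members had under 10 reads per mouse in CAST/EiJ and WSB/EiJ, so differences there were detectable only when large. Many also had under 10 in 129S1/SvImJ on CD, where the median mouse had 3 reads of Gzma and 2 of Prf1. The size of their fold changes in that strain therefore rests on few reads.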
